A study of Mus musculus with 4 samples.

Results

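The proteasome is the barrel-shaped protease that degrades ubiquitin-tagged proteins, and its constitutive subunits were followed here as transcripts in primary fibroblasts grown from mouse embryos. The genes were chosen by symbol alone: all numbered Psma, Psmb, Psmc, Psmd, Psmf and Psmg genes plus Psme3 and Psme4, leaving out the interferon-inducible Psmb8, Psmb9 and Psmb10. This gave 43 genes among 22502 compared. RNA of 4 cultures, 1 per genotype and all of the C57BL/6 strain, was sequenced after selection of polyadenylated RNA. The labels gave the genotypes as G3 Gadd45-/-Terc-/- (dKO), G3 Terc-/-, Gadd45-/- and wild type, and GEO's design note writes Gadd45a for Gadd45. G3 stands for generation 3 of breeding without Terc, the RNA template of telomerase, whose loss shortens telomeres over generations. Deletions were carried by whole animals, and how many embryos went into each culture was not given in the sources used here. Levels are FPKM, fragment counts scaled by transcript length and by library size, and a difference between a pair of libraries is that of their log2(FPKM + 1) values. With 1 library per genotype there is no replicate error, and no difference could be tested.

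The Gadd45a transcript went against the labels, so genotypes are given as labelled throughout: it read 45.1, 31.4, 33.9 and 22.9 FPKM in the libraries labelled dKO, G3 Terc-/-, Gadd45-/- and wild type, that is, higher in both libraries labelled deficient than in their counterparts. Terc was listed at 0 in both G3 libraries, against 0.259 FPKM in the library labelled Gadd45-/- and 0.530 FPKM in wild type. All of these values lie below 1 FPKM, the mean asked of measured genes, so they cannot check the Terc label. The library labelled Gadd45-/- held 16.4 FPKM of the Y-linked Ddx3y and 0.154 FPKM of Xist, while the other 3 libraries held 24.0 to 34.1 FPKM of Xist, so sex differed along with genotype. Fibroblast markers summed to 12599, 7418, 13546 and 12732 FPKM in the dKO, G3 Terc-/-, Gadd45-/- and wild-type libraries. Lymphocyte markers summed to at most 0.220 FPKM, endothelial markers to at most 1.52 FPKM, epithelial markers to at most 8.69 FPKM, muscle markers to at most 0.356 FPKM and erythroid markers to at most 0.132 FPKM. Neural markers summed to 77.1, 26.1, 37.3 and 39.3 FPKM in that order, nearly all of it from Tubb3, a tubulin. Depth was estimated at 19500000 to 19900000 fragments per library. For the 41 measured proteasome genes this corresponds to about 107 to 9130 fragments per gene and library, and a counting error of the log2 difference between libraries of at most 0.19 (SE, counting error only). Both take the longest annotated transcript of each gene, so where a shorter one prevails the fragments are fewer and the error is larger.

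The proteasome consists of a core particle, made of stacked alpha and beta rings with the protease sites inside the beta rings, and of a regulatory particle that caps it. The base of the cap holds a ring of ATPases that unfold the substrate and thread it into the core. The lid sits on the base and removes ubiquitin chains before degradation. Dedicated chaperones assemble core and base and are not part of the finished particle. When proteasome activity drops, the transcription factor NRF1 (Nfe2l1) raises transcription of many subunit genes at once, and interferon replaces the catalytic subunits by inducible ones.

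All 31 core, base and lid genes were abundant in all 4 libraries. Their median lay at percentile 93.3, 92.9, 94.2 and 94.5 of the 11592 measured genes in the dKO, G3 Terc-/-, Gadd45-/- and wild-type libraries. The 14 core genes had a median of 137 FPKM in the library labelled dKO, 136 FPKM in the G3 Terc-/- library, 135 FPKM in the library labelled Gadd45-/- and 141 FPKM in wild type. The 17 base and lid genes had lower medians of 84.6, 78.7, 92.4 and 92.2 FPKM in the same order. The transcript level of the cap was thus 0.616, 0.577, 0.687 and 0.654 of that of the core when medians were compared per length.

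Although each alpha and beta subunit occurs in the same number in the particle, their transcripts were not equal. Psma1, an alpha subunit, was the lowest core transcript in every library, at 55.6, 63.7, 65.5 and 65.5 FPKM in the dKO, G3 Terc-/-, Gadd45-/- and wild-type libraries. Psmb4, a non-catalytic beta subunit, was the highest in the dKO, Gadd45-/- and wild-type libraries (195, 219.6 and 222 FPKM), and stood at 182 FPKM in the G3 Terc-/- library. There the beta subunit Psmb3 was highest at 222 FPKM. The fold between highest and lowest core transcript was 3.51, 3.48, 3.35 and 3.39 in the dKO, G3 Terc-/-, Gadd45-/- and wild-type libraries. In the cap the lid subunit Psmd8 was highest in all 4 libraries (218, 233, 243 and 263 FPKM in that order) and the lid subunit Psmd11 lowest (50.8, 58.3, 54.9 and 58.1 FPKM). The order of the 31 genes was nearly the same between libraries, with Pearson's r of their log2 levels between 0.96 and 0.99 across genes, which are not independent replicates and share the same transcript lengths.

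**Figure D1:**
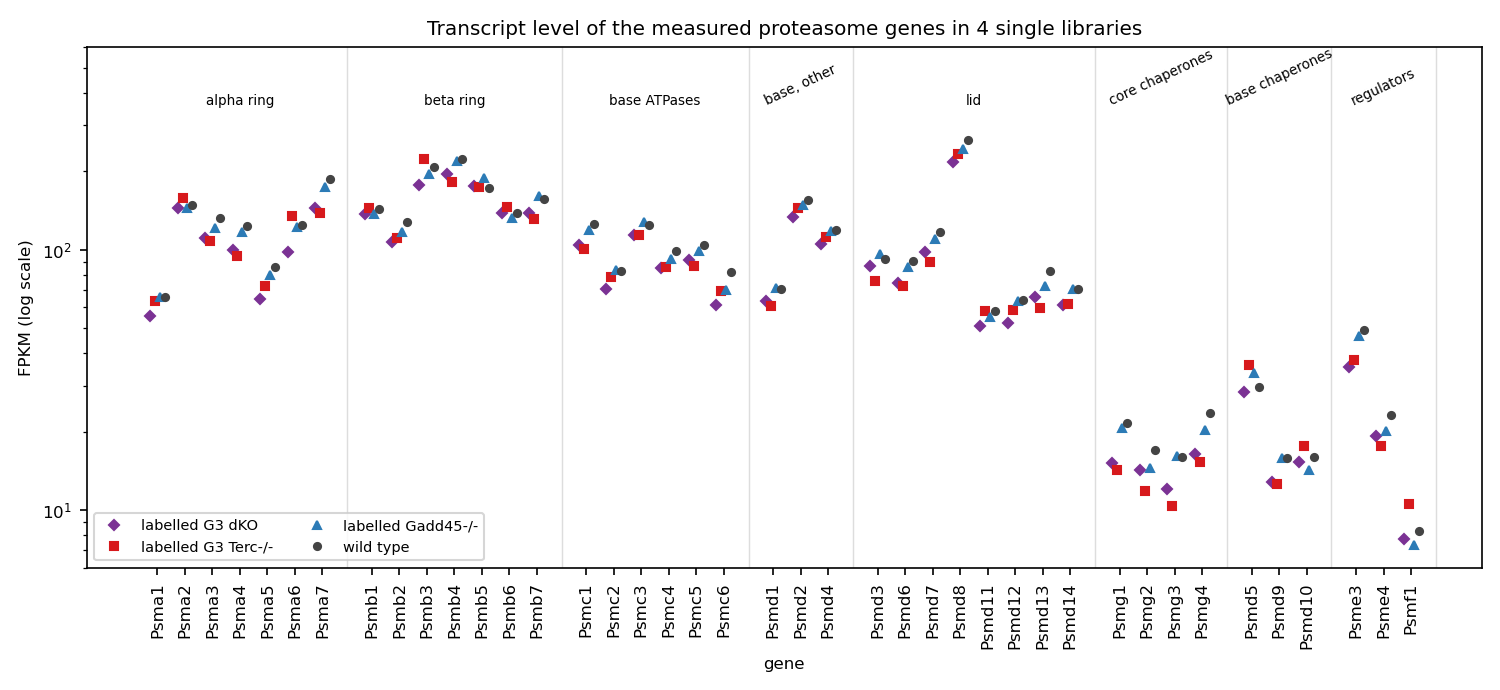
FPKM (log scale) of each measured proteasome gene in the 4 libraries, grouped by role; each point is 1 library. Core, base and lid genes lie between 50.8 and 263 FPKM in all libraries, and chaperones and regulators lie lower, between 7.36 and 49.3 FPKM.

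The comparison of G3 Terc-/- with wild type asks what loss of telomerase over generations goes with in these cells. None of the 41 measured proteasome genes differed by 1 or more in size, about 2-fold, against 16.2% of all measured genes. Nor did any in the other 4 comparisons, where 6.30% (dKO against G3 Terc-/-), 4.86% (dKO against Gadd45-/-), 0.543% (Gadd45-/- against wild type) and 6.68% (dKO against wild type) of all measured genes did. The median difference was -0.21, or 86.7% of the wild-type value, against a median of 0.01 over all measured genes and -0.12 over the 1668 genes with a mean of 50 FPKM or more. Of the 41 genes 31 had a negative difference, a direction shown by 49.6% of all measured genes and by 58.9% of the abundant ones. The spread among the 41 was narrow, with an interquartile range of 0.28, against 0.80 over all measured genes. Fibroblast markers were lower too, 7 of 9 at -0.5 or less, against 18.6% of all measured genes. Their median was -0.76, and their part in the result was not tested. In RNA from bulk cultures, less RNA per cell and fewer cells expressing a gene cannot be told apart.

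The 6 ATPases of the base (Psmc1 to Psmc6) were all lower in the G3 Terc-/- library than in wild type. The median difference was -0.22 and the range -0.31 to -0.07. The largest was that of Psmc1, which stood at 104 FPKM in the library labelled dKO, 101 FPKM in the G3 Terc-/- library, 119 FPKM in the library labelled Gadd45-/- and 125 FPKM in the wild-type library. Both G3 libraries lay below both others for this gene. The smallest was that of Psmc2 (78.7 FPKM in G3 Terc-/-, 82.4 FPKM in wild type), a difference of -0.07 with a counting error of 0.04. The ATPases Psmc3, Psmc4, Psmc5 and Psmc6 lay between them, with differences of -0.13, -0.20, -0.27 and -0.24. The other base genes were Psmd1 and Psmd2, the large scaffold subunits, and Psmd4, a ubiquitin receptor, with differences of -0.21, -0.10 and -0.08.

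Of the 8 lid genes 7 were lower in the G3 Terc-/- library, with a median of -0.24. Psmd13, a structural subunit, had the largest difference among core, base and lid genes. It had 65.7 FPKM in the library labelled dKO, 59.6 FPKM in the G3 Terc-/- library, 72.7 FPKM in the library labelled Gadd45-/- and 82.8 FPKM in the wild-type library, in which both G3 libraries lay below both others. Its exons overlap those of the neighbouring Sirt3, as those of Psma4, Psma5, Psmb5, Psmb7, Psmc3, Psmd1, Psmd3 and Psmg3 overlap other annotated genes, so these values are uncertain. Psmd7, the structural partner of the deubiquitinase, stood at 97.7 FPKM in the library labelled dKO, 89.5 FPKM in the G3 Terc-/- library, 109.5 FPKM in the library labelled Gadd45-/- and 117 FPKM in the wild-type library. Psmd14, the lid's deubiquitinase, stood at 61.5 FPKM in the library labelled dKO, 61.6 FPKM in the G3 Terc-/- library, 70.4 FPKM in the library labelled Gadd45-/- and 70.6 FPKM in the wild-type library, a difference of -0.19 between G3 Terc-/- and wild type. In Psmd7 and Psmd14 the Terc-deficient libraries both lay below the Terc-proficient ones. Psmd3, Psmd6, Psmd8 and Psmd12, structural subunits, had differences of -0.28, -0.32, -0.17 and -0.11. Psmd11 was the exception and stood at 58.3 FPKM in G3 Terc-/- and 58.1 FPKM in wild type.

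In the core the alpha and beta rings differed in their medians, -0.25 for the 7 alpha genes and 0.01 for the 7 beta genes. Psma4, Psma5, Psmb3, Psmb5 and Psmb6 have near-identical pseudogenes in the annotation. The other alpha genes, Psma1, Psma2, Psma3, Psma6 and Psma7, had differences of -0.04, 0.09, -0.29, 0.12 and -0.44. The other beta genes, Psmb1, Psmb2, Psmb4 and Psmb7, had 0.01, -0.20, -0.28 and -0.25. The order of the ring medians thus rests on genes with such copies. Psma7, an alpha subunit, had the largest core difference and stood at 144 FPKM in the library labelled dKO, 138 FPKM in the G3 Terc-/- library, 174 FPKM in the library labelled Gadd45-/- and 188 FPKM in the wild-type library. Both G3 libraries lay below both others. Psma4, another alpha subunit, stood at 94.4 FPKM in G3 Terc-/- and 123 FPKM in wild type, a difference of -0.38. Psma1, Psma3 and Psma5 had differences of -0.04, -0.29 and -0.25. Psma2 and Psma6, also of the alpha ring, had small positive differences of 0.09 and 0.12.

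Among the beta genes Psmb4, Psmb7 and Psmb2 were lower in the G3 Terc-/- library, with differences of -0.28, -0.25 and -0.20. Psmb7 carries the trypsin-like site. Psmb1, Psmb3, Psmb5 and Psmb6 had differences between 0.01 and 0.09. Psmb1 had the smallest range of all measured members, 1.05-fold over the 4 libraries: it had 137 FPKM in the library labelled dKO, 144 FPKM in the G3 Terc-/- library, 137 FPKM in the library labelled Gadd45-/- and 143 FPKM in the wild-type library. Psmb5, which carries the chymotrypsin-like site, stood at 176 FPKM in the library labelled dKO, 174 FPKM in the G3 Terc-/- library, 188 FPKM in the library labelled Gadd45-/- and 173 FPKM in the wild-type library. Psmb6, with the caspase-like site, stood at 138 FPKM in the library labelled dKO, 146 FPKM in the G3 Terc-/- library, 132 FPKM in the library labelled Gadd45-/- and 139 FPKM in the wild-type library. For these 3 genes the G3 libraries overlapped the Terc-proficient ones. Psmb3, a non-catalytic beta subunit, had 177, 222, 195 and 208 FPKM in the dKO, G3 Terc-/-, Gadd45-/- and wild-type libraries, so that its G3 libraries were the lowest and the highest.

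The median of the core exceeded that of base and lid by 0.08 in this comparison (-0.12 and -0.20). The gap was 0.00 when 8 members with a near-identical pseudogene in the annotation were left out, a choice made after seeing the data. Those 8 are Psmb3 with 7 such copies, Psma5, Psmb5 and Psmd2 with 2 each, and Psma4, Psmb6, Psmc1 and Psmd14 with 1 each, and their values are uncertain to that extent. In the other 4 comparisons the gap between core and cap was -0.06 (dKO against G3 Terc-/-), 0.01 (dKO against Gadd45-/-), 0.00 (Gadd45-/- against wild type) and -0.02 (dKO against wild type). Summed FPKM of the core genes was 1785, 1879.8, 1972 and 2034 in the dKO, G3 Terc-/-, Gadd45-/- and wild-type libraries, and that of the cap genes 1533, 1560.4, 1724 and 1798. Both sums were lower in each G3 library than in both Terc-proficient ones.

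The members with the largest differences were the chaperones that build the core. Psmg1 and Psmg2 form one heterodimer that orders the alpha ring, and Psmg3 and Psmg4 form the other. Psmg4 stood at 16.4 FPKM in the library labelled dKO, 15.3 FPKM in the G3 Terc-/- library, 20.4 FPKM in the library labelled Gadd45-/- and 23.7 FPKM in the wild-type library. Psmg3 stood at 12.1 FPKM in the library labelled dKO, 10.4 FPKM in the G3 Terc-/- library, 16.1 FPKM in the library labelled Gadd45-/- and 16.0 FPKM in the wild-type library. Psmg1 stood at 15.1 FPKM in the library labelled dKO, 14.2 FPKM in the G3 Terc-/- library, 20.6 FPKM in the library labelled Gadd45-/- and 21.5 FPKM in the wild-type library. In each of them both G3 libraries lay below both others, the G3 Terc-/- library being lowest. Psmg2 followed the same order, with 14.2, 11.9, 14.5 and 17.0 FPKM in the dKO, G3 Terc-/-, Gadd45-/- and wild-type libraries, and in it the dKO and Gadd45-/- libraries lay close together. The differences between G3 Terc-/- and wild type were -0.59, -0.58, -0.57 and -0.49 for Psmg4, Psmg3, Psmg1 and Psmg2, with counting errors of 0.18, 0.16, 0.12 and 0.12. Of the 41 measured genes these chaperones held all 3 with a difference of -0.5 or less, against 18.6% of all measured genes. With median-of-ratios size factors the count was 5, through Psmg2 and the lid gene Psmd13 (-0.53 and -0.52). Pomp, the chaperone of the beta ring and not among the members by symbol, stood at 133 FPKM in G3 Terc-/- and 146 FPKM in wild type, a difference of -0.12.

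The base chaperones did not share a direction. Psmd9 stood at 12.5 FPKM in G3 Terc-/- and 15.9 FPKM in wild type, a difference of -0.32. Psmd5 stood at 28.3 FPKM in the library labelled dKO, 35.9 FPKM in the G3 Terc-/- library, 33.5 FPKM in the library labelled Gadd45-/- and 29.7 FPKM in the wild-type library, so that it was highest in the G3 Terc-/- library. Psmd10, also known as gankyrin and the one measured member on the X chromosome, read 15.3, 17.6, 14.2 and 16.0 FPKM in the dKO, G3 Terc-/-, Gadd45-/- and wild-type libraries, a difference of 0.13 between G3 Terc-/- and wild type.

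The remaining members regulate the core. Psmf1, an inhibitor of the core in vitro, had the largest positive difference of all and stood at 7.73 FPKM in the library labelled dKO, 10.6 FPKM in the G3 Terc-/- library, 7.36 FPKM in the library labelled Gadd45-/- and 8.28 FPKM in the wild-type library. The G3 Terc-/- library was the highest and the other 3 lay close together. Psme3, the nuclear activator PA28 gamma, stood at 35.3 FPKM in the library labelled dKO, 37.8 FPKM in the G3 Terc-/- library, 46.6 FPKM in the library labelled Gadd45-/- and 49.3 FPKM in the wild-type library. Psme4, the activator PA200, stood at 17.6 FPKM in G3 Terc-/- and 23.1 FPKM in wild type, a difference of -0.38. Psma8, the alpha subunit of spermatogenic cells, and Psmb11, the catalytic subunit of thymic epithelium, did not reach a mean of 1 FPKM. Psma8 was listed at 0.269, 0.238, 0.235 and 0.0688 FPKM in the dKO, G3 Terc-/-, Gadd45-/- and wild-type libraries, about 8, 7, 7 and 2 fragments. Psmb11 was listed at 0.266 FPKM or less.

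**Figure D2:**
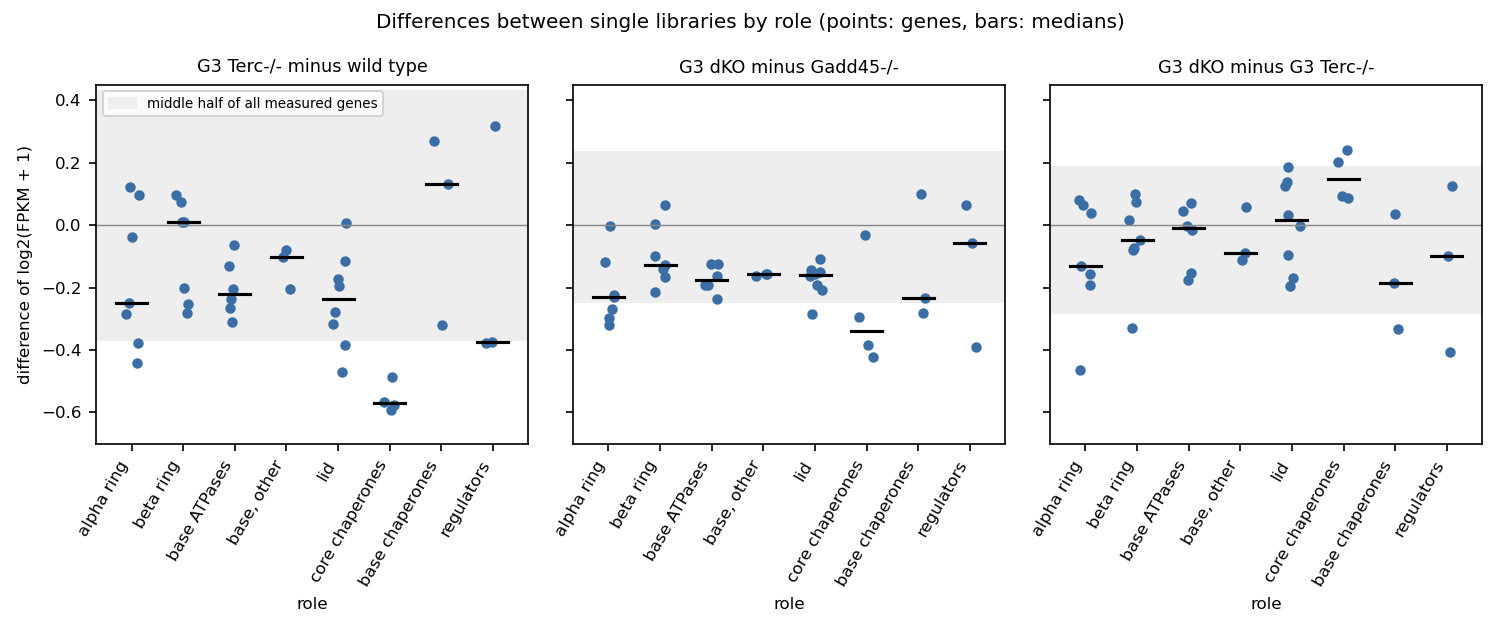
Difference of log2(FPKM + 1) between single libraries, by role, in 3 comparisons; points are genes, bars medians, and the grey band spans the interquartile range of all measured genes. In G3 Terc-/- against wild type the core chaperones lie lowest (-0.59 to -0.49), and in dKO against Gadd45-/- the base and lid genes all lie between -0.28 and -0.11.

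The same question in cells labelled Gadd45-deficient is addressed by dKO against Gadd45-/-, which uses 2 other libraries. No member differed by 0.5 or more in size, against 20.9% of all measured genes. The median difference was -0.16, and 37 of 41 members had a negative one, against 51.1% of all measured genes and 59.2% of the abundant ones. All 17 base and lid genes were lower in the library labelled dKO, within -0.28 to -0.11. The core chaperone Psmg1 (15.1 FPKM in dKO, 20.6 FPKM in Gadd45-/-) had the largest difference, -0.42, followed by Psme3 at -0.39 and Psmg3 at -0.39. Psmd10, Psmb6, Psmf1 and Psmb1 had positive differences of 0.10, 0.06, 0.06 and 0.00. Sex differed between these libraries as well and cannot be told apart from genotype.

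Across all 4 libraries, 31 of 41 measured members stood lower in both G3 libraries than in both Terc-proficient libraries, and none stood higher in both. Among all measured genes 35.2% stood lower in this way and 33.2% higher, and among those with a mean of 50 FPKM or more 46.0% stood lower and 27.5% higher. The 31 comprised all 9 base genes, 7 of 8 lid genes, 5 of 7 alpha genes, 3 of 7 beta genes, all 4 core chaperones, Psmd9, Psme3 and Psme4. The 10 exceptions were Psma2, Psma6, Psmb1, Psmb3, Psmb5, Psmb6, Psmd5, Psmd10, Psmd11 and Psmf1.

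The Gadd45 label in G3 cells is addressed by dKO against G3 Terc-/-. Here the members had a median close to 0 (-0.00). A negative difference was seen in 22 of 41, against 53.8% of all measured genes, and none was at 0.5 or more in size, against 21.5% of all measured genes. With size factors the median was 0.07 and with quantile normalization 0.06, and 17 of 41 were below 0 with either, against 45.3% and 42.2% of all measured genes. The lowest were the alpha subunit Psma6, at -0.46, Psmf1 at -0.41 and Psmd5 at -0.33. Psma6 stood at 97.6 FPKM in the library labelled dKO, 135 FPKM in the G3 Terc-/- library, 122 FPKM in the library labelled Gadd45-/- and 124 FPKM in the wild-type library. It was the dKO library that stood below the other 3. The highest were the core chaperones Psmg2 (0.24) and Psmg3 (0.20) and the lid subunit Psmd3 (0.18), and all 4 core chaperones had positive differences. Psmd3 read 86.3, 75.9, 95.9 and 92.2 FPKM in the dKO, G3 Terc-/-, Gadd45-/- and wild-type libraries, with both G3 libraries below both others.

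In Terc-proficient cells, Gadd45-/- against wild type gave a median of -0.07, with 33 of 41 below 0, against 57.5% of all measured genes. With size factors 26 were below 0, against 49.8% of all measured genes, and with quantile normalization 29, against 53.5%. No member was at 0.5 or more in size, against 3.53% of all measured genes. The lowest member was Psmc6, an ATPase, with 61.2, 69.2, 69.9 and 81.8 FPKM in the dKO, G3 Terc-/-, Gadd45-/- and wild-type libraries. Its difference was -0.22, followed by Psmg2 at -0.22 and Psmg4 at -0.21. The highest were Psmd5 at 0.17, Psmb5 at 0.13 and Psmd3 at 0.06. The double difference, the Gadd45 contrast in G3 cells minus that in Terc-proficient cells, had a median of 0.04 over the members, and reached -0.50 for Psmd5 and 0.46 for Psmg2. Because the Gadd45-/- library differs in sex from wild type, sex and genotype cannot be told apart in Gadd45-/- against wild type or in the double difference.

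The library labelled dKO against wild type had a median of -0.23, with 40 of 41 members below 0, against 54.6% of all measured genes. None was at or past -0.5, against 12.6% of all measured genes, and with a pseudocount of 0.1 FPKM 2 were. The lowest were Psmg4 (-0.50, just short of the rule), Psmg1 (-0.48) and Psme3 (-0.47), and the highest the catalytic genes Psmb5 (0.02) and Psmb6 (-0.01) with Psma2 (-0.04). This comparison shares libraries with the others, so its values are not separate evidence. Summed over core, base and lid, FPKM reached 3318 in the library labelled dKO, 3440.2 in G3 Terc-/-, 3696 in the library labelled Gadd45-/- and 3833 in wild type, which is 0.687%, 0.693%, 0.739% and 0.755% of all FPKM.

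Psmb8, which replaces Psmb5 under interferon, stood at 2.95 FPKM in the library labelled dKO, 46.8 FPKM in the G3 Terc-/- library, 5.94 FPKM in the library labelled Gadd45-/- and 2.51 FPKM in the wild-type library. It made up 1.65% of the summed FPKM of the pair in dKO, 21.2% in G3 Terc-/-, 3.06% in Gadd45-/- and 1.44% in wild type. Psmb9, which replaces Psmb6, made up 0.180%, 5.91%, 0.376% and 0.366% of its pair in that order. The G3 Terc-/- library had the highest share in both pairs, while Psmb5 and Psmb6 themselves stayed within 1.09-fold and 1.11-fold across libraries. Psmb10, which replaces Psmb7, made up 7.25% to 7.85% in every library. Psme1 and Psme2, the interferon-inducible PA28 activator, stood at 64.5 and 116 FPKM in G3 Terc-/- against 40.9 and 60.4 FPKM in wild type. The 7 macrophage markers, none of them listed at 0, summed to 17.9, 9.55, 6.52 and 5.11 FPKM in the dKO, G3 Terc-/-, Gadd45-/- and wild-type libraries, with the leukocyte marker Ptprc at 0.0795 FPKM or less in all of them; their part in the result was not tested.

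**Figure D3:**
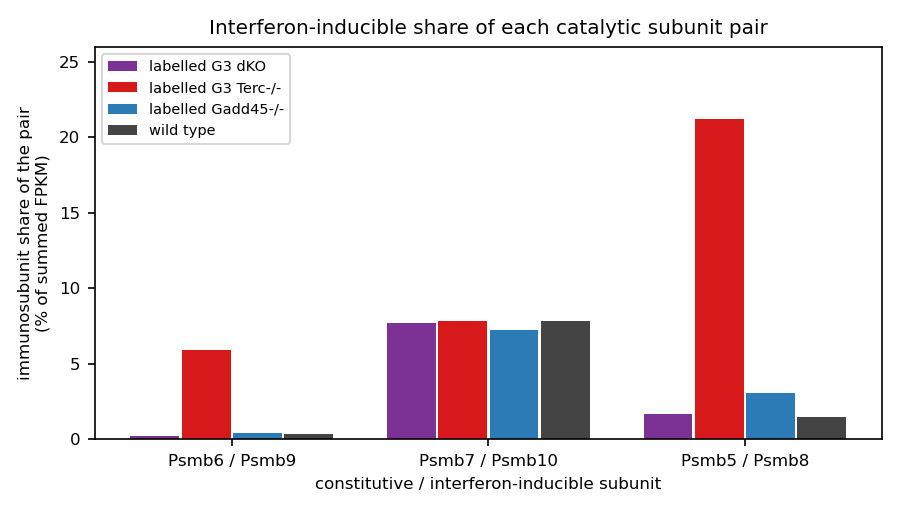
Share of the interferon-inducible subunit in the summed FPKM of each catalytic pair (%), 1 bar per library. The G3 Terc-/- library reaches 21.2% for Psmb8 and 5.91% for Psmb9, and Psmb10 lies between 7.25% and 7.85% everywhere.

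Genes that control proteasome transcription included some that stood higher in the G3 Terc-/- library. Of 12 genes around NRF1 and NRF2, 4 were at 0.5 or more in G3 Terc-/- against wild type and 1 at -0.5 or less, against 21.9% and 18.6% of all measured genes. Nfe2l1, which encodes NRF1, stood at 115 FPKM in the library labelled dKO, 171 FPKM in the G3 Terc-/- library, 96.1 FPKM in the library labelled Gadd45-/- and 107 FPKM in the wild-type library. Nfe2l2, which encodes NRF2, stood at 38.1 FPKM in the library labelled dKO, 57.5 FPKM in the G3 Terc-/- library, 36.0 FPKM in the library labelled Gadd45-/- and 36.9 FPKM in the wild-type library. The G3 Terc-/- library was the high one for both. Maff, a small partner protein of these factors, stood at 36.9 FPKM in G3 Terc-/- and 16.4 FPKM in wild type, and Ogt, a glycosyltransferase, at 25.4 FPKM in G3 Terc-/- and 16.7 FPKM in wild type. The median of the 12 was 0.20. Hcfc1, a cofactor that binds NRF1, was lower at 19.8 FPKM in G3 Terc-/- and 34.6 FPKM in wild type.

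Upstream sequences are shown for the catalytic genes Psmb5 and Psmb6, whose levels were among the steadiest of the members. The chaperone gene Psmg1, one of those with the largest negative differences, is shown beside them. These genes were picked with their levels known, so the choice cannot link a match to a level. The sequences are the 250 bases before the start annotated by RefSeq (build GRCm38.p6), read 5′ to 3′ on the gene's strand. Capitals mark the core of the antioxidant response element, TGACNNNGC, which NRF1 and NRF2 bind, searched on both strands. Psmb5 (chr14:54617996-54618245, minus strand) holds 1 match 47 bases before the start, Psmb6 (chr11:70525107-70525356, plus strand) holds 1 match that begins 9 bases before it, and Psmg1 (chr16:95990961-95991210, minus strand) holds none.
Psmb5: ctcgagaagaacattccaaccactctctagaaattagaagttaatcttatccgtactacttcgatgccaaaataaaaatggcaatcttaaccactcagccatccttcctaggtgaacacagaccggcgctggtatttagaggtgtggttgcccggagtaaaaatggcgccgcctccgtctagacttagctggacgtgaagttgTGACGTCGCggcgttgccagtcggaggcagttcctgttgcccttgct
Psmb6: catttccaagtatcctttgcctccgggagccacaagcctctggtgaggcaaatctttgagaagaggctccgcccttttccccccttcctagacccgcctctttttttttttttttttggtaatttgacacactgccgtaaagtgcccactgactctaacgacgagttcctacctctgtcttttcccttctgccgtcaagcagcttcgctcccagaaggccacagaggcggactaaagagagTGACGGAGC
Psmg1: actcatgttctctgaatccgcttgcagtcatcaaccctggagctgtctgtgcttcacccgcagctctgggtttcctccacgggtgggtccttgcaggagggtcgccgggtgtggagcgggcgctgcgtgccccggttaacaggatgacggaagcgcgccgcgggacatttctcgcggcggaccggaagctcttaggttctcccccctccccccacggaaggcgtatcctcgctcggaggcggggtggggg
Of the 43 members 35 had an upstream sequence in the table, and 5 of these held a match, namely Psmb5, Psmb6, Psmc6, Psmd9 and Psmd12. That is 14.3% of those 35, against 11.5% of 27025 genes in the same window. Psmc6, Psmd9 and Psmd12 were lower in G3 Terc-/- than in wild type, with differences of -0.24, -0.32 and -0.11. Psma2, with a range of 1.10-fold over the 4 libraries, held no match. Whether a match goes with the level of a gene was not tested. A match is a description of these letters and does not show binding.

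Other genes of the pathway were read beside the subunits. Of 19 partner proteins outside the symbol rule 1 was at 0.5 or more in G3 Terc-/- against wild type and 1 at -0.5 or less, against 21.9% and 18.6% of all measured genes, with a median of -0.13. Uchl5, a deubiquitinase of the cap, was the lower one at 9.23 FPKM in the library labelled dKO, 10.8 FPKM in the G3 Terc-/- library, 14.8 FPKM in the library labelled Gadd45-/- and 18.2 FPKM in the wild-type library. Zfand2a, a stress-induced zinc finger protein, was the higher one at 16.7 FPKM in G3 Terc-/- and 11.5 FPKM in wild type. Adrm1 and Shfm1, which are cap subunits with other kinds of symbol, had differences of -0.23 and -0.30. Ubb, a stress-inducible polyubiquitin gene, had a difference of 0.41, and Rps27a, which encodes ubiquitin fused to a ribosomal protein, had -0.52. Of 8 heat shock genes 2 were at 0.5 or more, near the share of 21.9% among all measured genes, and the median was 0.32, with Hspb1, a small heat shock protein, at 314 FPKM in G3 Terc-/- and 181 FPKM in wild type.

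Other complexes were set beside the proteasome, of which the COP9 signalosome was less abundant, with medians of 34.3 to 39.8 FPKM per library. The COP9 signalosome, which is built like the lid, had a median of -0.10 over 9 genes in G3 Terc-/- against wild type, with none at 0.5 or more in size, against 40.5% of all measured genes. Translation initiation factor eIF3, another complex of that kind, had -0.46 over 13 genes, with 5 at -0.5 or less, against 18.6% of all measured genes, the largest being Eif3j, which has a near-identical paralog, and Eif3c at 117 FPKM in G3 Terc-/- and 216 FPKM in wild type. The chaperonin CCT, which folds actin and tubulin, had -0.52 over 8 genes, with 4 at -0.5 or less. All 8 stood lower in both G3 libraries than in both others, as did 35.2% of all measured genes and 46.0% of the abundant ones. For dKO against wild type the medians were -0.06, -0.35 and -0.44, against -0.22 for the 31 core, base and lid genes. The core chaperones, at -0.57 and -0.43 in these comparisons, lay closer to CCT than to the subunits they assemble. Such distances could not be set against the spread between cultures of 1 genotype.

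**Figure D4:**
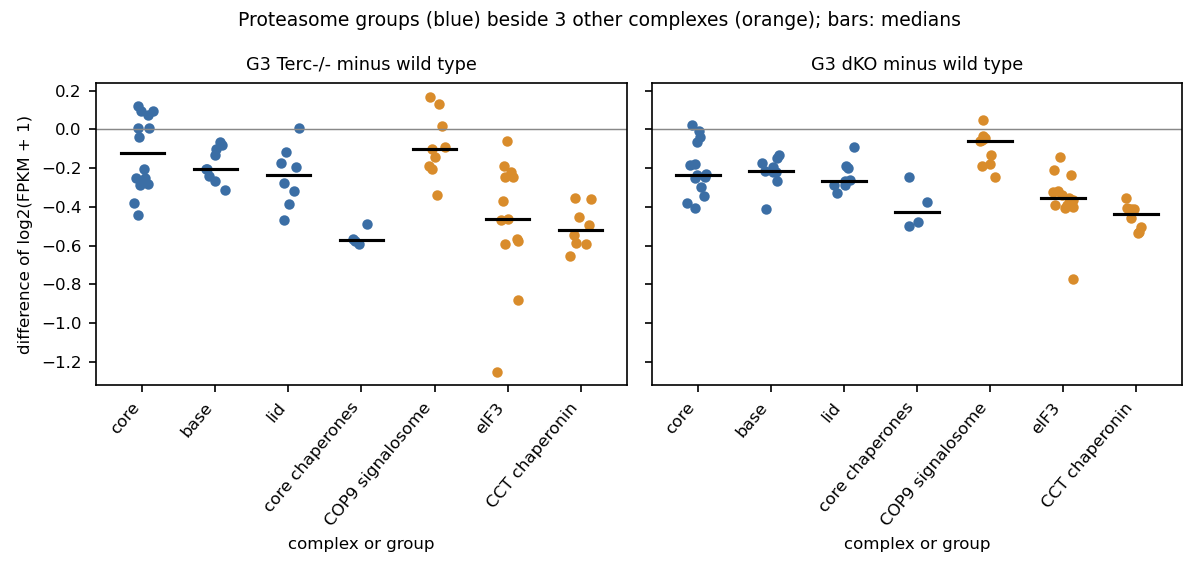
Difference of log2(FPKM + 1) from wild type in the G3 Terc-/- library (left) and the library labelled dKO (right); points are genes and bars medians, with proteasome groups in blue and other complexes in orange. Medians of core, base and lid lie between -0.26 and -0.12 in both panels, and those of eIF3 and CCT between -0.52 and -0.35.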

How the data were processed

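Polyadenylated RNA of 4 cultures was sequenced, according to the labels. What the authors deposited is FPKM, 1 value for each gene symbol in each library. TopHat2 2.1.1, Cufflinks 2.2.1 and build mm9 are named in the submitters' processing notes; annotation, strand setting and filters are not given in the sources used here. Values of this kind are relative to a library's total, and reads shared with gene copies or overlapping genes can be assigned wrongly.

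From 23235 symbols, 733 of short non-coding RNA were left out. Measured genes had a mean of 1 FPKM or more. Differences used a pseudocount of 1 FPKM; size rules were 1 and 0.5 (log2). No test was run. Members, lists and roles were chosen with earlier results of these data known. Named were all members, label-check genes and the 3 largest differences each way per comparison. Up to 4 genes per list with the largest G3 Terc-/- to wild-type difference were named as well, plus genes whose role is described. Adrm1, Shfm1, Pomp, Tubb3, the macrophage markers and the sex-linked genes were added after values were seen. The list of ubiquitin genes is reported here only in part. Depth was estimated from FPKM up to 0.05 of genes with 1 transcript of 1500 to 8000 nt (GENCODE M21, fragment length 200 nt). It was set to the most frequent depth at which such a value equals 1 fragment. At that depth 78.4% to 80.4% of these values lay within 0.1 of whole fragments. This share comes from the values that set the estimate and is no separate check. Near-identical copies were pseudogene transcripts matching at 90% identity over 50% of the length (BLAST+ 2.17.0). Alternatives were another pseudocount, size factors, quantile normalization, no filter and fewer members; leaving out members with near-identical copies, reading members beside genes of 50 FPKM or more, and sign counts under other scalings were chosen after seeing the data. Scripts (Python 3.11.15, pandas 2.3.3) were tested on simulated data.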

Additional observations from a re-analysis of the deposited data

Results flagged for a closer look

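Psmg2, a chaperone of the core, had opposite differences for the Gadd45 label in both settings: 0.24 for dKO against G3 Terc-/- and -0.22 for Gadd45-/- against wild type. Psmd5, a chaperone of the base, had opposite differences for Terc deficiency: -0.23 for dKO against Gadd45-/- and 0.27 for G3 Terc-/- against wild type. Both were singled out because a difference of at least 0.2 in size turned its sign, each side resting on single libraries. The lower side falls short of 0.2 for Psmg2 with size factors (-0.19) and quantile normalization (-0.18), and for Psmd5 with quantile normalization (-0.20, unrounded below 0.2 in size). For both genes the lower side uses the Gadd45-/- library, which differs in sex from the others. The difference between settings was not tested.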

How the results depend on the processing

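No paired analysis was possible because each genotype has 1 library. Medians over the members moved by less than 0.1 under every alternative: between -0.26 and -0.20 for G3 Terc-/- against wild type, -0.02 and 0.07 for dKO against G3 Terc-/-, -0.17 and -0.11 for dKO against Gadd45-/-, -0.07 and -0.04 for Gadd45-/- against wild type and -0.25 and -0.17 for dKO against wild type. Core minus base and lid stayed between 0.00 and 0.08 for G3 Terc-/- against wild type. No member passed the 2-fold rule in any of them. The number at -0.5 or less in G3 Terc-/- against wild type was 3, 4 with a pseudocount of 0.1 FPKM or quantile normalization, 5 with size factors and 0 among core, base and lid genes alone, where the chaperones are left out by construction; for dKO against wild type it was 0, and 2 with a pseudocount of 0.1 FPKM. Relative to the median of core, base and lid together, the base and lid median was 0.848, 0.783, 0.791 and 0.750 in the dKO, G3 Terc-/-, Gadd45-/- and wild-type libraries. These ratios lie nearer 1 by construction, but the order of the libraries also changed, with dKO highest and wild type lowest. Relative to the core median, Gadd45-/- was highest at 0.687 and G3 Terc-/- lowest at 0.577. Of the low chaperone genes, Psmg4 rested on about 107 fragments in the G3 Terc-/- library, so depth limits it most. Both G3 libraries lay below both others for 32 members with size factors and 29 with quantile normalization, against 31 as deposited. Size factors lay between 0.980 and 1.04.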
